A study of Caenorhabditis elegans with 16 samples.

Results

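The respiratory chain and ATP synthase genes are the nuclear genes for the mitochondrial complexes that pass electrons from NADH and succinate to oxygen and make ATP. They were taken by gene name: names beginning with nuo, nduf, cox, ucr, atp, asb, asg, sdha, sdhb, sdhd or cyc, and gas-1, isp-1, mev-1 and lpd-5. The rule found 52 of 19974 named genes. Of these, 14 belong to complex I, 5 to complex II, 7 to complex III, 2 are cytochrome c genes, 7 encode subunits and 8 assembly factors of complex IV, and 9 belong to the ATP synthase.

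RNA polymerase on these genes was measured by RAPID, a form of DamID in which the polymerase subunit RPB-6 carries the Dam methyltransferase of Escherichia coli, so that GATC sequences where the polymerase sits gain a methyl mark by which they are recovered. GFP::Dam, which binds no particular gene, was profiled in the same way. The 4 groups were hypodermis and intestine of wild-type Caenorhabditis elegans and of baf-1(G12T) animals, which carry 1 amino acid change in BAF-1, a small DNA-binding protein of the nuclear envelope, and are called mutant below. Dam::RPB-6 and GFP::Dam were each profiled in 2 replicates per group, which makes 16 samples, from 4000 larvae at the L4 stage grown for 48 h at 20 °C. In every strain the Dam fusion was a single-copy insertion on chromosome II behind a heat shock promoter. A cassette that blocks it was removed by FLP recombinase, driven by the dpy-7 promoter for hypodermis and by the nhx-2 promoter for intestine. A separate GFP::Dam strain served each genotype and tissue. The score of a gene averages over all cells in which FLP acted. The share of these cells with polymerase on the gene and the amount of polymerase per cell therefore cannot be told apart.

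The score is log2(Dam::RPB-6/GFP::Dam) over the gene, and a gene was called expressed where the authors' FDR for it was under 0.05. The deposited tables hold 1 score and 1 FDR per gene and group, with the replicates already combined. No SD, test or replicate check was therefore possible from these tables for any value below, and they give no read depth. The study's lists of genes changed in both replicates were not used here. By the study's list of reads per library, the pair of Dam::RPB-6 libraries of mutant hypodermis was very uneven in depth, and the part of this in the results below was not tested. Differences are given as values, and a difference beyond 1 on the log2 scale marks genes for description only. As a check of the tissue labels, 11 of 16 hypodermal marker genes were called in wild-type and 7 in mutant hypodermis, against 4 and 1 in intestine. Of 16 intestinal markers, 5 were called in wild-type and 8 in mutant intestine, against 1 in each hypodermis. Of all named genes, 9.81% and 7.53% were called in wild-type and mutant hypodermis, and 7.94% and 10.5% in intestine. The defining intestinal gene elt-2 was called in no group. From 18 marker genes of body wall muscle, neurons and germ cells, 1 to 3 were called in a group, and their part in the results below was not tested.

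Complex I takes electrons from NADH and complex II takes them from succinate. Both pass them to ubiquinone, from which complex III moves them through cytochrome c to complex IV, where oxygen is reduced. Complexes I, III and IV pump protons out of the matrix, and the ATP synthase lets them flow back while it makes ATP. Most subunits are encoded in the nucleus and imported. In C. elegans, mutations in gas-1, mev-1, isp-1 and nuo-6 alter respiration, stress resistance and lifespan.

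The readout rests on GATC sequences within each gene, and stretches of 4 members whose scores differed widely between the groups show what is read. Each is 60 bases of coding sequence around the coding GATC nearest to the start codon that has enough coding sequence on both sides within 1 exon, read 5′ to 3′ on the strand of the gene from the WBcel235 genome, with every GATC in capitals.
atp-4: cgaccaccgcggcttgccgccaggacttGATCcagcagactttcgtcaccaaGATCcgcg
atp-2: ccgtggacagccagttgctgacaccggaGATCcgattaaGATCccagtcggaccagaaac
cyc-2.1: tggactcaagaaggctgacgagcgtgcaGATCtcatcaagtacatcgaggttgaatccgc
isp-1: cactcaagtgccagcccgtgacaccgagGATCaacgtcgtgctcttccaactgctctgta
They lie at chrV:6427017-6427076 (minus strand, atp-4), chrIII:5228910-5228969 (plus strand, atp-2), chrIV:4748068-4748127 (minus strand, cyc-2.1) and chrIV:8135379-8135438 (minus strand, isp-1). The stretches of atp-4 and atp-2 hold 2 GATC sequences each and the others 1. A gene with few GATC sequences has few fragments behind its score. The whole gene has 5 fragments for atp-4 and cyc-2.1, 11 for isp-1 and 12 for atp-2, and the median over the 52 members was 7, as over all named genes.

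Of the 52 genes, 20 were called expressed in at least 1 group (38.5%, against 4775 or 23.9% of all named genes) and 32 in none. In wild-type hypodermis 11 members were called (21.2%, against 9.81% of all named genes). In mutant hypodermis 7 were called (13.5%, against 7.53%), in wild-type intestine 5 (9.62%, against 7.94%) and in mutant intestine 8 (15.4%, against 10.5%). The count was thus lower in the mutant in hypodermis and higher in the mutant in intestine, as it was for all named genes. Only atp-1 was called in all 4 groups (1.92%, against 0.941% of all named genes) and only atp-2 in 3 (1.92%, against 1.7%). A further 6 genes (atp-4, cox-5B, cyc-2.1, nduf-7, ucr-1 and ucr-11) were called in 2 groups (11.5%, against 5.68%) and 12 in 1 (23.1%, against 15.6%).

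**Figure D1:**
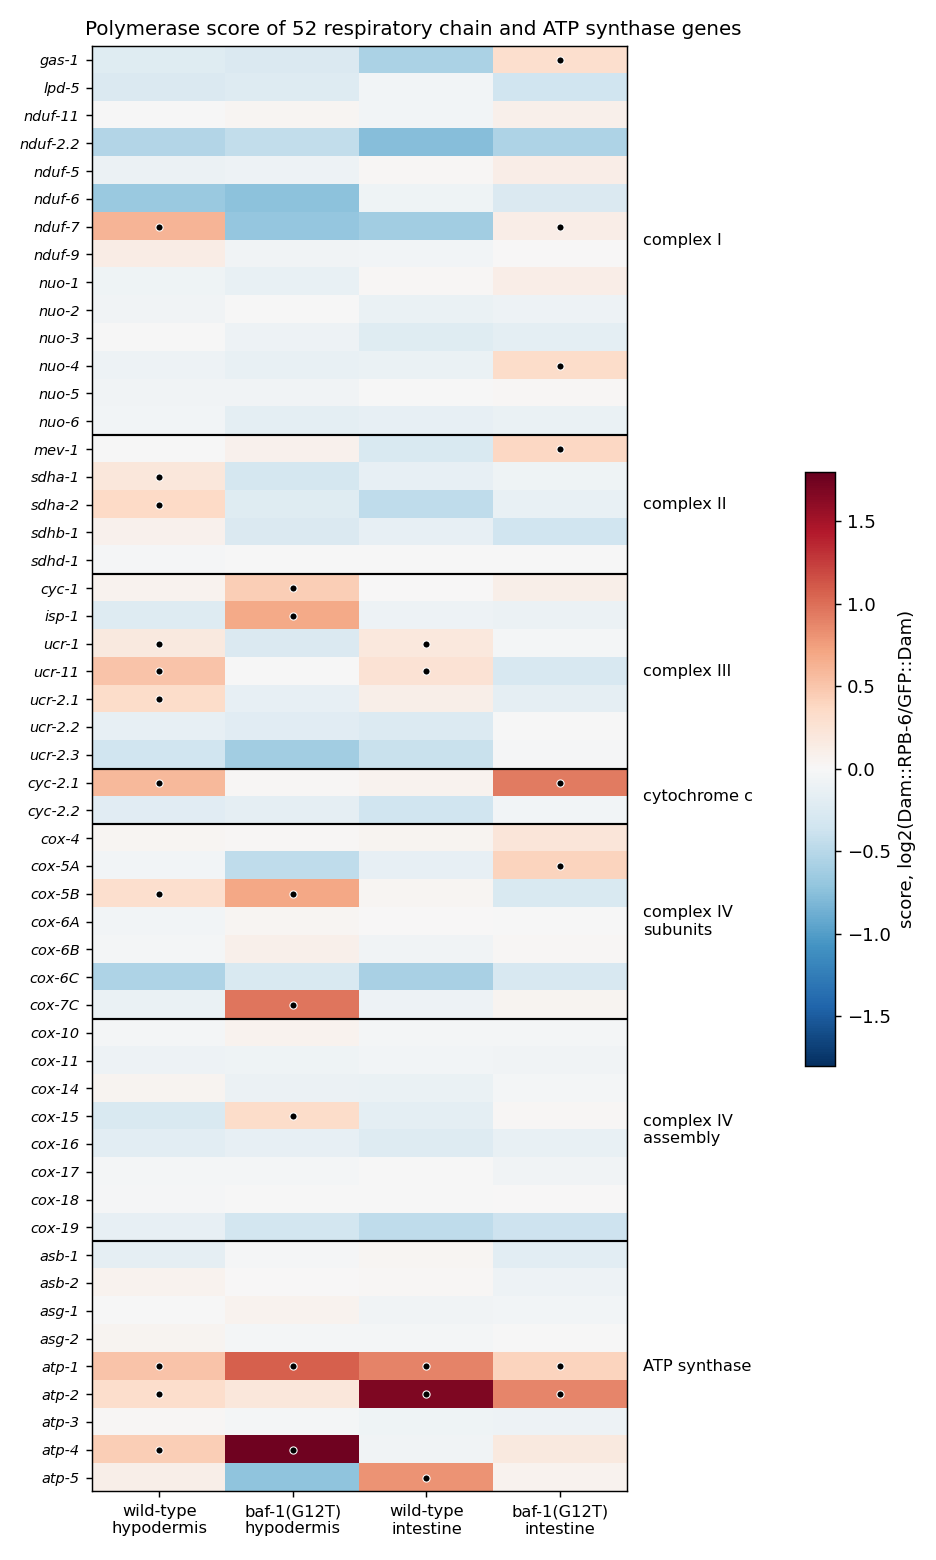
Scores of the 52 genes (rows, by complex) in the 4 groups (columns). Colour gives the score on the log2 scale, red above and blue below 0, and a black dot marks a gene called expressed (FDR under 0.05). The dots number 11, 7, 5 and 8 from left to right, and atp-1 has one in every column.

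By complex, the ATP synthase had 4 of 9 genes called in some group, complex III 5 of 7, complex II 3 of 5, cytochrome c 1 of 2 and the complex IV subunits 3 of 7. Complex I had 3 of 14 (21.4%), close to the 23.9% of all named genes, and the complex IV assembly factors 1 of 8 (12.5%). Median scores of the 52 members lay near 0 in each group, at -0.02 in wild-type and -0.06 in mutant hypodermis and at -0.06 and -0.02 in wild-type and mutant intestine. Over all named genes the medians were -0.04, -0.02, -0.07 and -0.02 in the same order. The members were more spread than all genes: their SD across genes was 0.27, 0.44, 0.37 and 0.27, against 0.23, 0.30, 0.26 and 0.20. Scores above 0 in all 4 groups were found for 5 members (atp-1, atp-2, cox-4, cyc-1 and cyc-2.1), 9.62% against 3.51% of all named genes. Scores below 0 in all 4 groups were found for 15 members, 28.8% against 30.5%.

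The highest member scores in wild-type intestine and in mutant hypodermis belonged to the ATP synthase, whereas nduf-7 was highest in wild-type hypodermis and cyc-2.1 in mutant intestine. The subunits alpha and beta form its catalytic head, and they are encoded by atp-1 and atp-2. The score of atp-1 (WBGene00010419, chromosome I, 12652277 to 12654655) was 0.51 in wild-type and 1.08 in mutant hypodermis, and 0.90 and 0.40 in wild-type and mutant intestine. The mutant value was thus the higher one in hypodermis and the lower one in intestine, by 0.56 and 0.50. For atp-2 (WBGene00000229, chromosome III, 5228417 to 5230536) the scores were 0.32 and 0.20 in wild-type and mutant hypodermis and 1.68 and 0.89 in wild-type and mutant intestine. Its intestinal value in wild type ranked 39 of 19974 genes, and the mutant value in hypodermis missed the call (FDR 0.0723). Both genes were therefore above 0 everywhere, but atp-2 was the higher of the pair only in intestine.

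Among the smaller subunits of the ATP synthase, atp-4 and atp-5 stood further apart between groups. Their highest and lowest scores differed by 1.82 and 1.53, against 1.48 for atp-2 and 0.68 for atp-1. The peripheral stalk, which holds the catalytic head still, includes coupling factor 6, encoded by atp-4, and subunit d, encoded by atp-5. The score of atp-4 (WBGene00020275, chromosome V, 6426246 to 6427112) was 0.44 in wild-type and 1.76 in mutant hypodermis, and -0.07 and 0.18 in wild-type and mutant intestine. It was called in both hypodermal groups and in neither intestinal one, and its mutant hypodermal score ranked 86 of 19974. For atp-5 (WBGene00007385, chromosome V, 11122901 to 11123867) the pattern was another one, with 0.11 and -0.72 in wild-type and mutant hypodermis and 0.81 and 0.06 in intestine. Only its wild-type intestinal value was called, and the mutant value was the lower one in both tissues, by 0.84 in hypodermis and 0.75 in intestine. The other 5 genes were called in no group: atp-3 (subunit OSCP), asb-1 and asb-2 (subunit b) and asg-1 and asg-2 (subunit g). Their scores lay between -0.19 and 0.07. Of the 9 genes, asg-1 has 1 GATC fragment and asg-2 has 2.

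**Figure D2:**
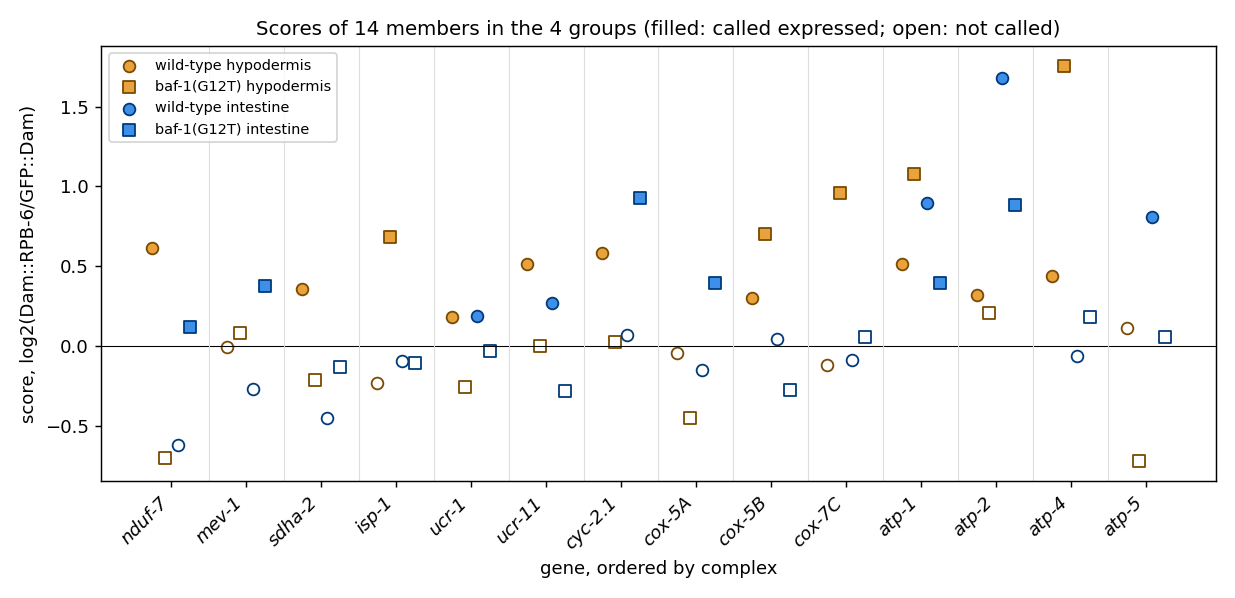
Scores of 14 members in the 4 groups (circles wild type, squares baf-1(G12T), orange hypodermis, blue intestine), ordered by complex. Filled symbols mark genes called expressed and open symbols genes not called, on the log2 score axis. The mutant hypodermal value of atp-4 (1.76) and the wild-type intestinal value of atp-2 (1.68) were the highest of all 52 genes.

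In complex I the genes called were nduf-7, gas-1 and nuo-4, and all 3 were called in mutant intestine. NDUF-7 is the counterpart of human NDUFS7, an iron-sulfur subunit next to the ubiquinone site. The score of nduf-7 (WBGene00012376, chromosome I, 9108173 to 9110918, 17 fragments) was 0.62 in wild-type and -0.70 in mutant hypodermis, and -0.62 and 0.12 in wild-type and mutant intestine. It was called in wild-type hypodermis (FDR 1.56e-06) and, with a much lower score, in mutant intestine (FDR 0.0391). The gene gas-1 scored -0.22 and -0.26 in wild-type and mutant hypodermis and -0.57 and 0.30 in intestine, so that the mutant intestine stood alone above 0. For nuo-4, which encodes the counterpart of the accessory subunit NDUFA10, the values were -0.10 and -0.13 in hypodermis and -0.12 and 0.33 in intestine. The other 11 genes, among them nuo-1 (the NADH-binding flavoprotein), nuo-5 (NDUFS1) and lpd-5 (NDUFS4), scored between -0.77 and 0.13. The lowest of these were nduf-6 in hypodermis (-0.67 in wild type and -0.74 in the mutant) and nduf-2.2, the paralog of gas-1, in intestine (-0.77 and -0.55).

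The rule takes complex I genes by older names. In RefSeq, 19 further complex I subunits have names that begin with ndua, ndub, nduc, ndus or nduv, and all 19 are in the deposited tables under a sequence name. They were added after the values of the members had been seen. Of them, 4 were called in some group. In mutant intestine these were ndub-7 (D2030.4, score 0.55), ndub-2 (F44G4.2, 0.52) and ndub-8 (Y51H1A.3, 0.16). The fourth, ndub-10 (F59C6.5), was called in both hypodermal groups at 0.19 and 0.39 in wild-type and mutant animals. Over the 33 complex I genes, members included, 2 were called in wild-type and 1 in mutant hypodermis, 0 in wild-type and 6 in mutant intestine. As shares of the 33 genes these are 6.06%, 3.03%, 0% and 18.2%, against 9.81%, 7.53%, 7.94% and 10.5% of all named genes. The share was thus below that of all genes in 3 groups and above it in mutant intestine. Many of the 19 added genes have few GATC fragments, and such genes were called less often. Of all genes with 2 or 3 fragments, 3.76%, 3.11%, 2.84% and 3.11% were called in the same order. The part of fragment number in the complex I shares was not tested.

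Complex II is succinate dehydrogenase, an enzyme of the citric acid cycle as well. Its flavoprotein has a pair of genes, sdha-1 and sdha-2, and both were called in wild-type hypodermis alone. The score of sdha-2 (WBGene00016392, chromosome I, 10683270 to 10685587) was 0.36 there, -0.22 in mutant hypodermis, and -0.45 and -0.13 in wild-type and mutant intestine. For sdha-1 the values were 0.20 and -0.31 in wild-type and mutant hypodermis and -0.14 and -0.08 in intestine. Wild-type hypodermis was thus the only group above 0 for either gene. The iron-sulfur subunit gene sdhb-1 was called nowhere but stood in the same order in hypodermis, at 0.08 in wild type and -0.26 in the mutant. The membrane anchor gene mev-1 (WBGene00003225, chromosome III, 10334277 to 10335168), for the cytochrome b subunit, was called only in mutant intestine. It scored -0.004 and 0.08 in wild-type and mutant hypodermis and -0.27 and 0.38 in intestine. The other anchor gene, sdhd-1, has 2 fragments and stayed between -0.02 and -0.005.

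Complex III had calls in hypodermis of both genotypes, but for different genes. In wild-type hypodermis the called genes were ucr-1 (core protein 1), ucr-2.1 (core protein 2) and the small-subunit gene ucr-11. In mutant hypodermis they were isp-1, for the Rieske iron-sulfur protein, and cyc-1, for cytochrome c1. The score of ucr-11 (WBGene00019007, chromosome I, 6552834 to 6553379) was 0.52 in wild-type and -0.002 in mutant hypodermis, and 0.27 and -0.28 in wild-type and mutant intestine. For ucr-1 (WBGene00018963, chromosome III, 5592135 to 5594401) it was 0.18 and -0.26 in hypodermis and 0.19 and -0.03 in intestine. Both genes were called in each wild-type tissue and in neither mutant one. The values of ucr-2.1 were 0.33 and -0.15 in hypodermis and 0.10 and -0.17 in intestine. The wild-type value was the higher one in both tissues for all 3 genes. Except for ucr-2.1 in intestine, this order is largely set by the calls through which the genes were picked.

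Of the catalytic subunits of complex III, the score of isp-1 (WBGene00002162, chromosome IV, 8134016 to 8136055) was -0.23 in wild-type and 0.68 in mutant hypodermis, and -0.09 and -0.11 in wild-type and mutant intestine. It is 1 of 2 members, with cox-5A, that share no GATC fragment with another protein-coding gene. For cyc-1 the values were 0.07 and 0.45 in hypodermis and 1.4e-05 and 0.11 in intestine. The genes ucr-2.2 and ucr-2.3, paralogs of ucr-2.1, scored below 0 in all 4 groups, between -0.63 and -0.01.

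Cytochrome c carries electrons between complexes III and IV and has a pair of genes. The score of cyc-2.1 (WBGene00017121, chromosome IV, 4747895 to 4749012) was 0.58 in wild-type and 0.02 in mutant hypodermis, and 0.07 and 0.93 in wild-type and mutant intestine. It was called in the first and the last of these, and its mutant intestinal score ranked 81 of 19974. The paralog cyc-2.2 was called nowhere, with scores from -0.35 to -0.05, and all of its fragments are shared with other genes. Reads that match both copies of a paralog pair could be placed on either, and the methods do not say how they were counted.

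Among the subunits of complex IV the calls went to cox-5A, cox-5B and cox-7C. The score of cox-7C (WBGene00009161, chromosome I, 9773172 to 9774012, 3 fragments) was -0.12 in wild-type and 0.96 in mutant hypodermis, and -0.09 and 0.05 in wild-type and mutant intestine. Only the mutant hypodermal value was called (FDR 0.011). For cox-5B (WBGene00000371, chromosome I, 9788725 to 9790050) the values were 0.30 and 0.70 in hypodermis, both called, and 0.04 and -0.27 in intestine. The score of cox-5A (WBGene00012553, chromosome III, 12905491 to 12906619) was -0.04 and -0.45 in hypodermis and -0.15 and 0.39 in intestine, with a call in the mutant intestine alone. The subunits cox-4, cox-6A, cox-6B and cox-6C were called nowhere, and cox-6C scored from -0.58 to -0.28. The gene cox-6B is listed with 203 GATC fragments. Its Ensembl span on chromosome III (2699663 to 2786859, 87197 bp) overlaps 14 other protein-coding genes, so its scores of -0.07 to 0.09 describe that stretch rather than the 553 bp that RefSeq gives the gene.

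The genes cox-7C and cox-5B lie 14.7 kb apart on chromosome I, and both had a higher score in mutant than in wild-type hypodermis. The tubulin gene tba-1, which shares a fragment with cox-5B, stood at -0.19 in wild-type and 0.65 in mutant hypodermis. The other genes placed between cox-7C and cox-5B did not: F26E4.7, gpx-1 and drsh-1 differed by -0.09, -0.06 and -0.02 between the genotypes.

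Of the complex IV assembly factors, only cox-15, for the enzyme that makes heme A, was called, and only in mutant hypodermis. Its scores were -0.27 and 0.33 in wild-type and mutant hypodermis and -0.17 and 0.03 in intestine. The other 7 genes (cox-10, cox-11, cox-14, cox-16, cox-17, cox-18 and cox-19) scored between -0.46 and 0.06. They include the heme A farnesyltransferase gene cox-10 and the copper delivery genes cox-11, cox-17 and cox-19.

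The difference between baf-1(G12T) and wild type in hypodermis was read over the 15 members called in at least 1 genotype. More than 1 higher in the mutant were atp-4 (a difference of 1.32) and cox-7C (1.08), 2 of 15 or 13.3%, against 7.65% of the 2759 genes expressed in hypodermis. More than 1 lower was nduf-7 (-1.32), 1 of 15 or 6.67%, against 3.3%. Both counts lie within 1 gene of what the background share gives for 15 genes. After quantile normalization between genotypes, the differences of atp-4 and cox-7C were 0.98 and 0.95, under the limit of 1, and that of nduf-7 was -1.34. That scaling also moved the split over all expressed genes, from 211 higher and 91 lower to 134 higher and 155 lower. Over all 52 members the median difference was -0.01, against 0.02 for all named genes, and 24 members (46.2%) were higher in the mutant, against 60.3% of all named genes.

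Complex III and the ATP synthase held genes with differences of either sign in hypodermis. In complex III, ucr-1, ucr-2.1 and ucr-11 were lower in the mutant by 0.44 to 0.52, and cyc-1 and isp-1 were higher by 0.38 and 0.91. Each of these 5 was called in 1 hypodermal group alone, and that call largely sets the sign of its difference. The same holds for every other member called in 1 hypodermal genotype alone. The score needed for a call differed between the groups. Among genes with 4 to 7 fragments the lowest called score was 0.21 in wild-type and 0.31 in mutant hypodermis. Of the 11 members called in wild-type hypodermis, 3 were also called in the mutant (atp-1, atp-4 and cox-5B), which is 27.3% of the wild-type and 42.9% of the mutant calls. Over all named genes the shared calls were 36% and 46.9%.

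In intestine 11 members were called in at least 1 genotype, and 0 of them differed by more than 1 in either direction, against 2.87% of the 2998 expressed genes higher and 2.87% lower. The widest differences were gas-1 (0.87), cyc-2.1 (0.86), nduf-7 (0.74) and mev-1 (0.65) on the higher side and atp-2 (-0.80), atp-5 (-0.75), ucr-11 (-0.55) and atp-1 (-0.50) on the lower side. A gene called in 1 genotype alone entered through that call, which largely sets the sign of its difference. In intestine this holds for all 11 members but atp-1 and atp-2. Those were the members called in both genotypes, 40% of the wild-type and 25% of the mutant calls, against 43.5% and 32.8% over all named genes. Over the 52 members the median difference was 0.06, against 0.03 for all named genes, and 34 members (65.4%) were higher in the mutant, against 66.7% of all named genes.

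**Figure D3:**
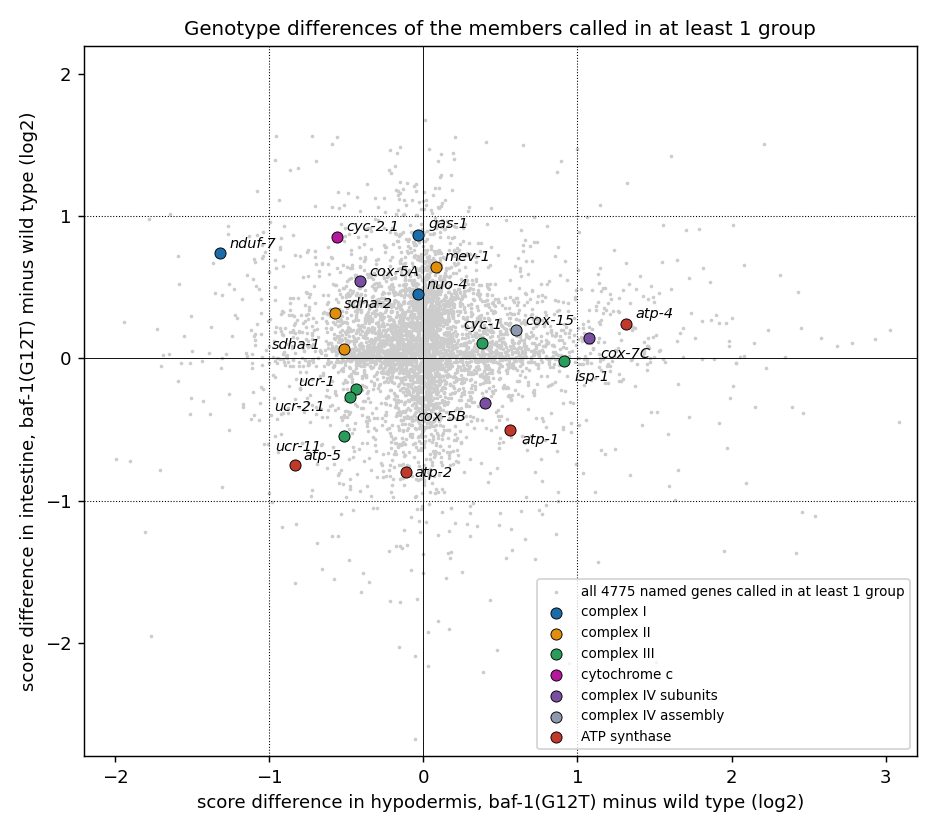
Score difference between baf-1(G12T) and wild type in hypodermis (x axis) and in intestine (y axis), on the log2 scale, for the 20 members called in at least 1 group (coloured by complex) and all 4775 named genes called in at least 1 group (grey). Dotted lines mark differences of 1. Only nduf-7, atp-4 and cox-7C lie beyond them among the 20, all in hypodermis.

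The differences in the 2 tissues had opposite signs for 10 of these 20 members, 50% against 49.4% of all named genes called in at least 1 group. In hypodermis lower and in intestine higher were cox-5A, cyc-2.1, gas-1, nduf-7, nuo-4, sdha-1 and sdha-2, and the reverse held for atp-1, cox-5B and isp-1. Several of these differences are small, such as -0.02 for isp-1 in intestine. Lower in the mutant in both tissues were atp-2, atp-5, ucr-1, ucr-11 and ucr-2.1. Higher in both were atp-4, cox-7C, cox-15, cyc-1 and mev-1.

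Between the tissues of wild-type animals, 12 members were called in at least 1 tissue. The gene nduf-7 was more than 1 higher in hypodermis (1.24), 1 of 12 or 8.33%, against 7.63% of 3055 expressed genes. The gene atp-2 was more than 1 higher in intestine (a hypodermis minus intestine difference of -1.36), 1 of 12 or 8.33%, against 3.96%. Next on the hypodermal side were sdha-2 (0.81) and cyc-2.1 (0.51), and on the intestinal side atp-5 (-0.70) and atp-1 (-0.38). Among the ATP synthase genes atp-4 was higher in hypodermis, by 0.51. A call in 1 tissue alone largely sets the sign of a difference, which holds for all of these but atp-1 and atp-2. After quantile normalization between tissues the split over all expressed genes moved from 233 higher in hypodermis and 121 higher in intestine to 177 and 144. Of the 5 members called in wild-type intestine, 4 (atp-1, atp-2, ucr-1 and ucr-11) were also called in wild-type hypodermis, or 80% against 30.9% of all intestinal calls. As a share of the hypodermal calls these are 36.4%, against 25% over all named genes. Over the 52 members the median difference was 0.04, against 0.02 for all named genes.

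In baf-1(G12T) animals, 14 members were called in at least 1 tissue. The gene atp-4 was more than 1 higher in hypodermis (1.58), 1 of 14 or 7.14%, against 9.53% of 3179 expressed genes. No member was more than 1 higher in intestine, 0 of 14, against 3.02%. After quantile normalization the split over all expressed genes moved from 303 and 96 to 187 and 204. The widest differences on the intestinal side among the 14 were those of cyc-2.1 (-0.91), cox-5A (-0.85), nduf-7 (-0.82) and atp-2 (-0.68). The gene atp-5 (-0.78) was called in neither mutant tissue. On the hypodermal side cox-5B (0.97), cox-7C (0.90), isp-1 (0.79) and atp-1 (0.68) followed atp-4. The order of the tissues was thus the opposite in the mutant and in wild type for atp-1, cyc-2.1 and nduf-7, among other members. For cyc-2.1 and nduf-7, called only in wild-type hypodermis and mutant intestine, the calls largely set this order. The share of all named genes with such a reversal is not given. The median difference over the 52 members was -0.02, against 0.01 for all named genes.

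The number of GATC fragments bears on these differences. Over all genes expressed in hypodermis, 32.6% of those with 2 or 3 fragments, 18.8% with 4 to 7, 8.3% with 8 to 15 and 1.33% with 16 or more differed by more than 1 between the genotypes. Of the 3 members past that limit, cox-7C has 3 fragments, atp-4 has 5 and nduf-7 has 17. The gene nduf-7 is 1 of 11 past that limit among the 827 expressed genes with 16 or more fragments. In intestine the corresponding shares were 21.7%, 11.2%, 4.13% and 0.505%. Calls depend on fragments too: in wild-type hypodermis 3.76% of all genes with 2 or 3 fragments were called and 18.1% of those with 16 or more.

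**Figure D4:**
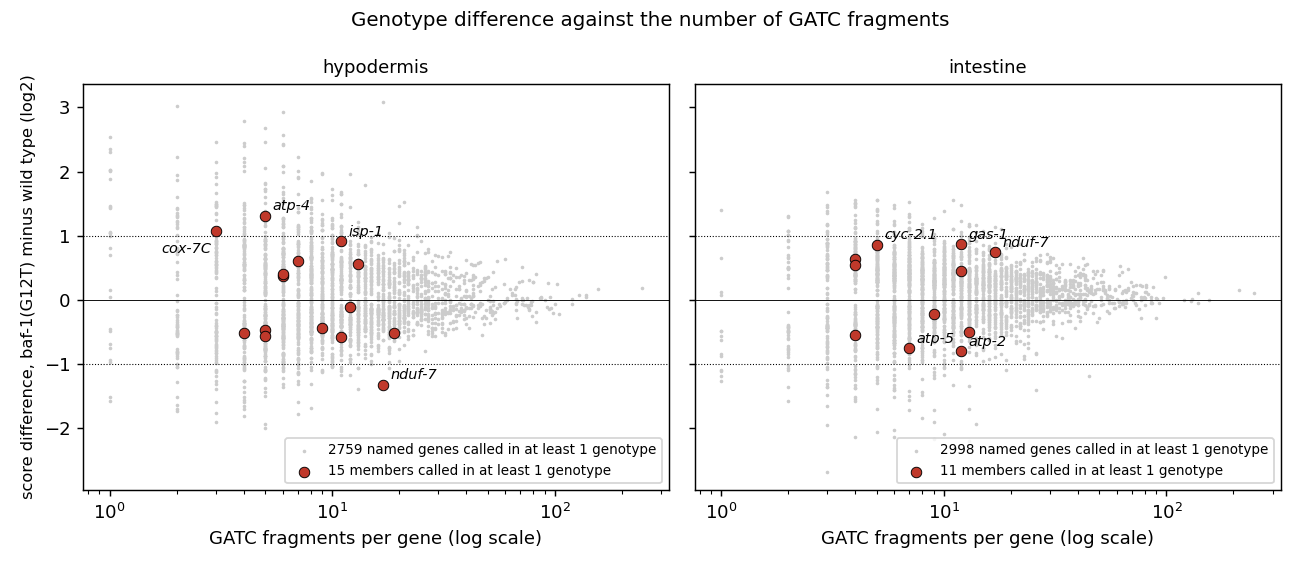
Score difference between baf-1(G12T) and wild type (y axis, log2) against the number of GATC fragments of the gene (x axis, log scale) in hypodermis (left) and intestine (right). Grey points are all named genes called in at least 1 genotype of that tissue (2759 and 2998), red points the 15 and 11 members among them. The grey cloud narrows with more fragments, and nduf-7 (17 fragments, -1.32) lies at the lower edge of it in hypodermis.

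Fragments at the ends of a gene often reach into the next one. Of the 52 members, 50 share at least 1 fragment with another protein-coding gene, 5 share all of them (asg-1, cox-17, cyc-2.2, nuo-3 and sdhd-1) and 16 overlap another gene. For atp-4, 2 of 5 fragments are shared, with alh-4 and the overlapping gene T05H4.11. In hypodermis T05H4.11 stood at 0.03 and 0.28 in wild-type and mutant animals, and alh-4 at 0.65 and 0.62. The gene nduf-7 shares 1 of 17 fragments with gei-17, which stood at 0.26 and -0.12. The neighbour of cox-7C, F26E4.4, shares 1 of its 3 fragments and stood at -0.10 and 0.01. For cyc-1, 2 of 6 fragments are shared, with C54G4.9 and the overlapping gene C54G4.7. In hypodermis C54G4.7 stood at -0.10 and 0.64, a wider difference (0.74) than that of cyc-1 (0.38). For mev-1, 2 of 4 fragments are shared, and its neighbour jmjd-4 stood at -0.04 and 0.39 in wild-type and mutant intestine. The part of such neighbours in the scores was not tested.

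Other genes of energy metabolism were read from lists of known genes. Of all named genes, 9.81% were called in wild-type and 7.53% in mutant hypodermis. The shares in wild-type and mutant intestine were 7.94% and 10.5%, and both pairs apply to each list below. Of 20 genes of the citric acid cycle, pyruvate dehydrogenase and pyruvate carboxylase, 6 were called in wild-type and 5 in mutant hypodermis, and 7 and 6 in intestine. The pyruvate carboxylase gene pyc-1 and suca-1, for a subunit of succinyl-CoA ligase, were called in all 4 groups. The citrate synthase gene cts-1 stood at 0.04 and 0.57 in wild-type and mutant hypodermis and at 1.04 and 1.29 in intestine. The malate dehydrogenase gene mdh-2 was more than 1 higher in the mutant intestine, from -0.67 to 0.67, with 0.51 and -0.30 in hypodermis. Its signs in the groups were those of nduf-7.

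The adenine nucleotide carriers exchange the ATP made in mitochondria for ADP. Of 6 genes for these carriers and for inhibitors of the ATP synthase, 2 were called in wild-type and 3 in mutant hypodermis, and 3 and 2 in intestine. The carrier gene ant-1.1 scored 0.53 and 0.48 in wild-type and mutant hypodermis and 2.32 and 1.35 in intestine. The inhibitor gene mai-2 scored 0.16 and -0.40 in hypodermis and 1.47 and 0.22 in intestine. Both had their highest score in wild-type intestine and a lower one in the mutant intestine, as atp-2 and atp-5 did. The other genes of this list had their highest score in another group. In intestine ant-1.2 and ant-1.4 were higher in the mutant, and ant-1.3 and mai-1 were lower. The inhibitor gene mai-1 was called in all 4 groups.

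Of 8 ubiquinone synthesis genes, 2, 0, 1 and 1 were called in wild-type and mutant hypodermis and in wild-type and mutant intestine. Of 8 assembly and quality control factors outside the rule, 2, 2, 3 and 2 were called in the same order. Among these the prohibitin gene phb-2 was more than 1 higher in the mutant hypodermis, from -0.25 to 1.32. Of 10 genes of the mitochondrial stress response, 7, 3, 5 and 5 were called. The mitochondrial chaperone gene hsp-6 was called only in intestine (1.49 and 0.88 in the wild-type and mutant groups), and hsp-60 in all 4 groups. This list also holds gpd-2, for glyceraldehyde-3-phosphate dehydrogenase, an enzyme of glycolysis. It was called in all 4 groups and was more than 1 lower in the mutant intestine, from 1.995 to 0.93. Of 18 glycolysis genes, 7, 6, 2 and 4 were called. The enolase gene enol-1 was more than 1 higher in the mutant hypodermis, from -0.04 to 1.74, and gpd-3, for another copy of that dehydrogenase, more than 1 lower in the mutant intestine, from 1.62 to 0.06. Of 5 genes that maintain or transcribe the mitochondrial genome, 1, 0, 0 and 0 were called. The 12 protein-coding genes of the mitochondrial genome itself were not analysed here.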

How the data were processed

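RAPID was carried out on 200 ng of genomic DNA with 14 PCR cycles. Adapter-bearing reads at GATC sequences of the ce11 genome were kept by the authors, and damidseq_pipeline divided the Dam::RPB-6 signal by that of GFP::Dam. Gene scores and FDR values came from polii.gene.call with WBCel235 genes. The deposited score is a log2 ratio, and the FDR that the authors deposited with it is a q-value for transcription. How the 2 replicates were combined is not stated in the methods. The tables give no depth. The study's read counts were used only to describe the depth of the mutant hypodermal libraries, and its lists of changed genes were not used here. The GATC fragment number per gene is the same in all 4 tables and equals the GATC sequences in the Ensembl 115 span plus 1 for all 52 members. The 11 of 19985 rows without a gene name were left out.

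Genes were compared by score differences among those with an FDR under 0.05 in at least 1 of the groups compared. Full values are given for members past a difference of 1 between genotypes, the 5 highest called members per group, members called in all groups and the 3 widest tissue differences in each direction in wild type. Other members were named after their values were seen, as were neighbouring genes. The members and lists were chosen with earlier results of these data known. Alternatives were FDR limits (0.01, 0.1), at least 4 fragments, a score above 0.2, differences of 0.58 and 1.5, centring, quantile normalization and subsets of members. The software was matplotlib 3.10.9, scipy 1.17.1, pandas 2.3.3, numpy 2.4.6 and Python 3.11.15.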

Additional observations from a re-analysis of the deposited data

Results flagged for a closer look

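For 3 of the 20 members called in at least 1 group, the difference between genotypes had opposite signs in hypodermis and intestine and was more than 1 apart on the log2 scale. Among all 4775 named genes called in at least 1 group, 413 met this (8.65%, against 15% of the members). The difference between the tissues was not tested, because each group has 1 score per gene. The intestinal minus the hypodermal difference was 2.06 for nduf-7, 1.42 for cyc-2.1 and -1.07 for atp-1. The first of these rests on 17 GATC fragments, the second on 5 and the third on 13. For nduf-7 and cyc-2.1 the mutant score was the lower one in hypodermis and the higher one in intestine, and for atp-1 it was the reverse. Both nduf-7 and cyc-2.1 were called only in wild-type hypodermis and mutant intestine, and these calls largely set the signs of their differences. The gene atp-1 was called in all 4 groups.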

How the results depend on the processing

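No paired analysis was possible because each table holds 1 value per gene and group, and for the same reason no replicate could be left out. At an FDR under 0.01, 6 members were called in wild-type and 4 in mutant hypodermis and 3 and 5 in wild-type and mutant intestine. An FDR under 0.1 gave 9 in wild-type intestine. Shares of all named genes at these and the following limits are not given, so the counts cannot be set against other genes. With a genotype difference of 0.58, 4 members were higher in the mutant hypodermis, and in intestine 4 were higher and 2 lower. At 1.5, 0 were higher and 0 lower in hypodermis. With at least 4 fragments, 1 (atp-4) was higher there, and after quantile normalization 0 were. With a tissue difference of 0.58, 2 members were higher in hypodermis and 2 in intestine in wild type, and 5 and 4 in the mutant. After quantile normalization 2 were more than 1 higher in the mutant intestine than in the mutant hypodermis. Quantile normalization turned the sign of the median genotype difference in intestine (-0.0156) and of the median tissue difference in wild type (-0.0182), both near 0. Over the members called in at least 1 genotype the hypodermal median genotype difference was -0.12 (all genes so called, -0.06) and the intestinal one 0.45 (all genes so called, 0.15), with signs that follow which genotype had more calls. The cause of the other shifts was not tested. Leaving out cox-6B, chosen after seeing the data, moved no median by 0.1.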
